A study of Rattus norvegicus with 2 samples.

Results

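The genes described here are 43 genes of the cell cycle, taken by symbol: 25 genes used in the G2 and M phases, 15 genes used in S phase and 3 genes that act around G1. The symbols of 42 of them were among the 32623 genes counted in the cochlear duct of the rat, and Ccnb2 was not analysed here, so that 24 G2/M genes, 15 S genes and 3 G1 genes were measured. The cells came from Sprague-Dawley rats at postnatal day 1 (P1) and postnatal day 7 (P7), and each age was 1 droplet library from pooled animals, made with a 10x Genomics 3′ kit (V3) after digestion with collagenase IV, papain and DNase I. By the Methods of the study, the stria vascularis, spiral ligament and spiral ganglion had been separated by microdissection, and red cells and dead cells had been removed. Both libraries carry the label greater epithelial ridge cell, but cells led by epithelial markers such as Epcam and Oc90 made up 2.13% of the kept cells at P1 and 1.72% at P7, and cells led by mesenchymal or glial markers made up most of the rest. No litter, sex or animal is marked in the libraries, so age and library cannot be told apart, and no test between the ages was possible with 1 library each.

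A dividing cell copies its DNA in S phase and separates the copies in M phase. The S genes code for the helicase that opens the DNA (Mcm2 to Mcm7), the factors that load it, the clamp Pcna and the enzymes that make deoxynucleotides. The G2/M genes code for the kinase Cdk1 and its cyclins, the kinases and motors of the spindle, the kinetochore, and the ubiquitin machinery that ends mitosis. The G1 cyclins Ccnd1 and Ccnd2 bring a cell into the cycle, and Cdkn1a, which codes for p21, holds cyclin-dependent kinases back. In the cochlea hair cells and most supporting cells have left the cycle before birth, whereas glia, mesenchyme and vessels go on growing after it.

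The promoters of G2/M genes and S genes both often held CCAAT but differed in how often they held other elements, shown here on 6 genes whose values return below. RefSeq promoters of the build GRCr8, 250 bases before to 50 bases from the start, were at hand for 32 of the 42 genes. They were searched on both strands for the cell cycle genes homology region (CHR, TTTGAA or TTCGAA), for CCAAT and for E2F words (TTTGGCGC, TTTCGCGC, TTTGGCGG or TTTCCCGC). A CHR was found in 14 of 20 G2/M promoters, in 3 of 11 S promoters and in 19.5% of all 27457 promoters. CCAAT was found in 16 of 20 G2/M promoters, 8 of 11 S promoters and 37.7% of all, and CHR together with CCAAT in 12 of 20, 2 of 11 and 7.83%. An E2F word was found in 1 of 20 G2/M promoters, Cdk1, in 6 of 11 S promoters (Mcm2, Mcm3, Mcm5, Mcm6, Mcm7 and Tyms) and in 2.31% of all. Capitals mark these words in the 250 bases before the start of Cdk1 (chr20:19265043-19265292, plus strand), Cdc20 (chr5:137255800-137256049, minus strand), Top2a (chr10:84473094-84473343, minus strand), Mki67 (chr1:199952594-199952843, minus strand), Mcm5 (chr19:13488563-13488812, plus strand) and Mcm7 (chr12:22163179-22163428, minus strand). A CHR on the other strand reads TTCAAA and a CCAAT on the other strand reads ATTGG.
Cdk1: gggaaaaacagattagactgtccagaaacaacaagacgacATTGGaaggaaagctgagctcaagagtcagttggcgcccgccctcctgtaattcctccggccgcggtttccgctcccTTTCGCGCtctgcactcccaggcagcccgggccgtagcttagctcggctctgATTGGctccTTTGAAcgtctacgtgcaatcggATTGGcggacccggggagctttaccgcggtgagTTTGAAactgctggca
Cdc20: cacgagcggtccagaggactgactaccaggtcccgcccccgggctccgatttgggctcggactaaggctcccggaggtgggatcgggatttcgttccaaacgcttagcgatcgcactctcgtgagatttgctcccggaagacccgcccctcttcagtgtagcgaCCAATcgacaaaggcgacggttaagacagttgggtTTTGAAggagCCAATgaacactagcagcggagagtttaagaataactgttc
Top2a: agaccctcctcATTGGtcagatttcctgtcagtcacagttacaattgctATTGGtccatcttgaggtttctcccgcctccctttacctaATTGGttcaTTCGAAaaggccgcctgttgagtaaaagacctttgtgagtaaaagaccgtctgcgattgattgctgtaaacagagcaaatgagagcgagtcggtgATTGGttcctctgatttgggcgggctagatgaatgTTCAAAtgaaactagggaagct
Mki67: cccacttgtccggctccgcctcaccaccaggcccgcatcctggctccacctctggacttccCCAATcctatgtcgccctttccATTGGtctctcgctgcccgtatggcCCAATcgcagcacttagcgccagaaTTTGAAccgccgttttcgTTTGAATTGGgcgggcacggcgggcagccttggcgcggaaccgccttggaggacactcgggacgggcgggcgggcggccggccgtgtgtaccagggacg
Mcm5: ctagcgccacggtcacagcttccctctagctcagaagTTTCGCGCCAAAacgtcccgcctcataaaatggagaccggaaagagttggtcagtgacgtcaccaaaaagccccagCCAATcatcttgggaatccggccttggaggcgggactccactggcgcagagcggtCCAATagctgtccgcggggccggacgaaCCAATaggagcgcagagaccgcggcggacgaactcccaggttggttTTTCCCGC
Mcm7: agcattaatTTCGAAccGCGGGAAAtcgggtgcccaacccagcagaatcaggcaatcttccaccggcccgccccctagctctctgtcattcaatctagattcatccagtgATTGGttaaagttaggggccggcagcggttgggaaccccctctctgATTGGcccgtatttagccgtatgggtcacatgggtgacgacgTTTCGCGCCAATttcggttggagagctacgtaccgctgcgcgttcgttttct
The CHR of Cdc20 began 51 bases before the start and those of Cdk1 began 72 and 16 bases before it. Top2a and Mki67 each held 4 CCAAT words and 2 CHR words, and in Mki67 a CHR and a CCAAT overlapped. Mcm5 held 3 E2F words, of which 2 overlapped, and Mcm7 held 2, of which 1 overlapped a CCAAT. Cdk1 and Cdc20 were higher at P7 and Top2a and Mki67 lower, as given below, and the same words stood before genes of both directions. A match is a run of letters and was not tested as a binding site.

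After the study's limits on genes, UMIs (counted transcript molecules) and mitochondrial UMIs, 12779 of 14068 barcodes were kept at P1 and 12581 of 14501 at P7, with medians of 6565 and 6878 UMIs. The libraries shared 60 barcode sequences. To compare cells at 1 depth, every cell was thinned to 2000 UMIs, which left out 252 cells at P1 and 711 at P7. A cell was called G2/M-positive when at least 3 different G2/M genes had a UMI in it after thinning, and S-positive when at least 3 S genes had one. Clusters were made without the cell cycle genes and named from marker lists with the ending -like. Of 24 clusters, 2 held most positive cells. One was mesenchyme-like, with 677 cells at P1 and 336 at P7, and 538 of 664 (81.0%) and 278 of 319 (87.1%) of those left after thinning were G2/M-positive. Its leading marker list had a mean log2 ratio of 0.59 to the other cells, near the least value for a name (0.5). The other was glia-like, with 307 cells at P1 and 551 at P7, and 246 of 306 (80.4%) and 512 of 538 (95.2%) of those left were positive.

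Most cells held no G2/M gene after thinning. With 12527 cells at P1 and 11870 at P7 after thinning, 9877 and 9047 had no UMI of any G2/M gene, 1498 and 1709 had exactly 1 gene, 243 and 213 had exactly 2 genes, and 89 and 70 had exactly 3. Top2a, the topoisomerase that untangles the copied DNA, stood at 972 CPM (counts relative to all UMIs of the same cells, on the usual CPM scale) in the positive cells of P1 and at 8.10 in the other cells. At P7 it stood at 589 and 4.72. These genes chose the cells, so the values describe the call. Cell cycle genes outside the 43 did not enter the call. Of 34 other G2/M genes, 33 at P1 and 32 at P7 were at least 2-fold higher in positive cells, against 2.64% and 2.95% of all 13729 genes, and their median log2 ratio was 3.24 and 3.81. Pttg1, which codes for securin, had the highest ratio of them at both ages, at 4.85 and 5.02 on the log2 scale. Of 29 other S genes, 21 were at least 2-fold higher at each age, with a median of 1.35. The list was chosen with results of these data known and the cells of a library are not replicates, so that these counts carry no test.

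The S and G2/M genes marked overlapping sets of cells. Both calls held for 205 cells at P1 and 248 at P7, the S call alone for 225 and 338, and the G2/M call alone for 704 and 653. The levels of the genes in these 3 kinds of cells describe the calls that the genes made. Ccnb1, the cyclin that drives entry into mitosis, stood at 9.97 CPM in S-only cells of P1, 69.7 in cells with both calls and 246 in G2/M-only cells. At P7 it stood at 4.93, 70.9 and 325. Cenpf, a kinetochore protein, was likewise lower in cells with both calls than in G2/M-only cells, at 325 and 999 CPM at P1 and at 255 and 717 at P7. Aurkb, the kinase of the chromosomal passenger complex, was nearly level between them, at 109 and 110 CPM at P1 and 209 and 226 at P7. Among the S genes, Mcm6 was high in S-only cells and in cells with both calls, at 279 and 243 CPM at P1 and 232 and 178 at P7, and low in G2/M-only cells, at 62.4 and 29.3. Rrm1, the large subunit of ribonucleotide reductase, was higher in cells with both calls than in S-only cells, at 298 against 161 CPM at P1 and 271 against 143 at P7. Of the G1 genes, Ccnd1 was highest in S-only cells, at 111 CPM at P1 and 210 at P7, and lower in G2/M-only cells, at 70.2 and 110.

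The share of G2/M-positive cells was close at both ages, whereas more cells were S-positive at P7. G2/M-positive cells were 909 of 12527 cells at P1, or 7.26% (exact 95% binomial interval 6.81 to 7.72), and 901 of 11870 cells at P7, or 7.59% (7.12 to 8.08). Between the ages this gave a log2 ratio, P7 over P1, of 0.06, with an interval of -0.07 to 0.20. S-positive cells were 3.43% (3.12 to 3.77) at P1 and 4.94% (4.55 to 5.34) at P7, a log2 ratio of 0.52 (0.34 to 0.71). Intervals here and below cover counting error only, not the spread between animals. Without thinning the log2 ratio of the S share was 0.17, and without Pcna and Mcm7 in the list it was 0.33. Positive cells were deeper than the rest, with a median of 10063 against 6501.5 UMIs at P1 and 10433 against 6930 at P7. Called doublets made up 4.84% of the positive and 4.91% of the other cells at P1, and 8.44% and 5.91% at P7.

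Shares by cell class moved in different ways between the ages. Among mesenchyme-like cells 6.11% (5.62 to 6.62; 550 of 9009 cells) were G2/M-positive at P1 and 4.09% (3.64 to 4.58; 292 of 7135) at P7, a log2 ratio of -0.58 (-0.79 to -0.37). Their S share was 3.15% (2.80 to 3.53) at P1 and 2.999% (2.62 to 3.42) at P7, a log2 ratio of -0.07 (-0.33 to 0.19). The direction of this S ratio depended on the clustering, with 0.31 (0.04 to 0.59) at a resolution of 0.4, -0.30 (-0.57 to -0.03) at 1.2 and -0.33 (-0.61 to -0.06) with 30 principal components. Among glia-like cells 13.6% (12.1 to 15.2; 250 of 1840) were G2/M-positive at P1 and 14.8% (13.7 to 16.0; 549 of 3713) at P7, with a log2 ratio of 0.12 (-0.10 to 0.34). Other clusterings gave higher glial ratios with intervals above 0, namely 0.30 (0.08 to 0.52) at a resolution of 0.4, 0.33 (0.11 to 0.55) at 1.2, 0.28 (0.06 to 0.50) with integrated libraries, 0.32 (0.10 to 0.54) with the cell cycle genes kept and 0.86 (0.64 to 1.08) with 30 principal components. The S share of glia-like cells was 5.22% (4.25 to 6.33) at P1 and 8.75% (7.86 to 9.71) at P7, a log2 ratio of 0.75 (0.41 to 1.09). The median number of G2/M genes in positive cells was 8 in both classes at P1, and 9 in mesenchyme-like and 10 in glia-like cells at P7. Coarser clustering, at a resolution of 0.4, ended the lower mesenchymal G2/M share (log2 ratio 0.01): there a cluster of 2879 cells, led by the fibrocyte markers but close to another list, went unnamed. Named by that leading list, a step added after the data had been seen, the log2 ratio was -0.60. Of glia-like cells without a G2/M call, 1.07% at P1 and 12.0% at P7 were called doublets, and without called doublets the log2 ratio of the glial G2/M share was 0.23 (interval 0.0022 to 0.46). With 30 principal components a cluster of 1459 cells led by Pou3f1 and Pmel, highest in the melanocyte markers and close behind in the glial ones, went unnamed. Outside the dividing cluster other clusters held the mesenchyme of each age, led by Coch, Aldh1a2 or Penk at P1 and by Sfrp4, Pmch, Lepr, Tnfaip6 or Otos at P7, and the glia likewise (Pcsk1 and Scn7a at P1, Pou3f1 at P7). A cluster mostly of 1 library may be that library and not a type.

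**Figure D1:**
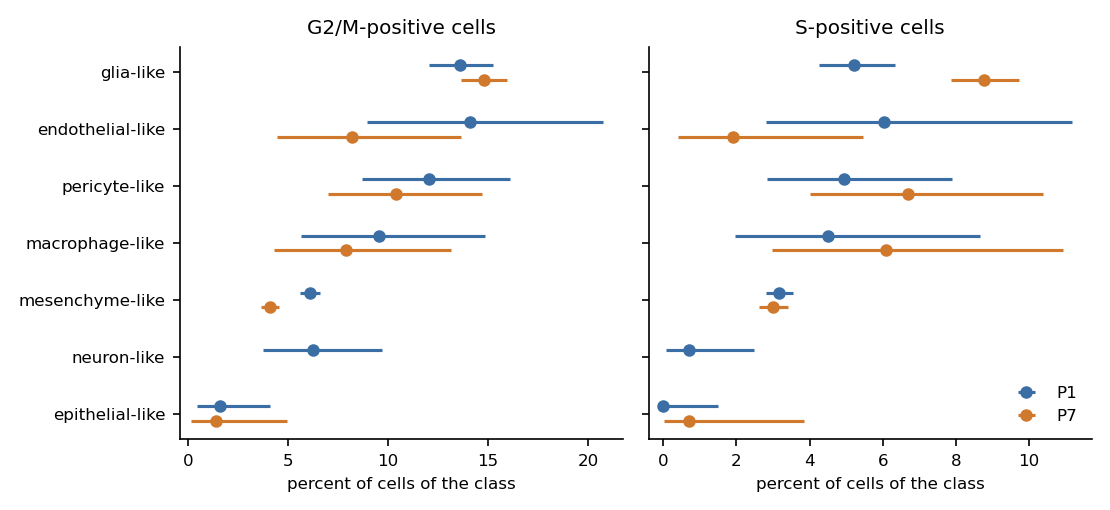
Percent of G2/M-positive cells (left) and S-positive cells (right) in each cell class at P1 and P7, 1 library each, as points with exact 95% binomial intervals over cells. Glia-like cells stand highest at P7 on both axes (14.8% and 8.75%), and mesenchyme-like cells lie lower at P7 than at P1 on the left (4.09% and 6.11%).

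The small classes of vessels and immune cells also held G2/M-positive cells. Pericyte-like cells were G2/M-positive in 12.0% (8.70 to 16.1) at P1 and 10.4% (7.03 to 14.7) at P7, endothelial-like cells in 14.1% (8.94 to 20.7) and 8.23% (4.45 to 13.7), and macrophage-like cells, whose cluster was also led by the neutrophil genes S100a8 and S100a9, in 9.55% (5.66 to 14.9) and 7.93% (4.29 to 13.2). The interval of the log2 ratio between the ages includes 0 in each of these 3 classes, and for endothelial-like cells it ran from -1.90 to 0.29. At both ages the intervals of these 3 classes overlap that of the neuron-like cells of P1 given next (3.75 to 9.70), so none was read as higher. Macrophage-like cells were 1.49% of the kept cells at P1 and 1.42% at P7.

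Cells that do not divide gave the background of the call. Neuron-like cells, found at P1 alone, were G2/M-positive in 6.25% (3.75 to 9.70; 18 of 288), with a median of 4 genes, an unthinned median of 21170.5 UMIs and an S share of 0.69% (0.08 to 2.49). The share of cells with at least 5 G2/M genes was 2.78% (1.21 to 5.40) in them, 5.04% (4.60 to 5.51) in mesenchyme-like and 11.3% (9.89 to 12.8) in glia-like cells of P1. In the mesenchyme-like clusters other than the dividing one, the share at the age that held most of their cells was between 0.065% and 0.37%. None of 251 cells at P1 and 33 at P7 was positive in a cluster led by pigment cell and haemoglobin genes, which allows shares of up to 1.195% and 9.09% (3 counts of the total, the limit taken for each count of 0). Beside the neuron-like share, the share of all mesenchyme-like cells at 3 genes cannot be read as higher, but the share in the glia-like cells lies above it. Of the 550 positive mesenchyme-like cells of P1, 538 lay in the dividing cluster, where 81.0% were positive, and the median of the 550 was 8 genes. Only listed cell cycle genes were left out of the clustering. Unlisted genes raised in positive cells, such as Sgo2 (log2 ratio 4.42 at P1), could still gather these cells. That gathering, and the low shares in the other mesenchyme-like clusters, therefore do not show a share above the background.

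Few epithelial-like cells carried the genes. They were G2/M-positive in 4 of 245 cells at P1 (1.63%, 0.45 to 4.13) and 2 of 143 at P7 (1.40%, 0.17 to 4.96). Both intervals overlap that of the neuron-like cells of P1 (3.75 to 9.70), so neither share was read as lower. Epithelial-like cells were S-positive in 0 of 245, which allows up to 1.22%, and 1 of 143 (0.70%). The summed level of the 24 G2/M genes in them was 112 CPM at P1 and 203 at P7, so that level and share point in opposite directions and no order between the ages was read from either. Dividing epithelial cells were not detectable above the neuron-like share at this depth. None of 21 hair cell-like cells at P1 was G2/M-positive, which allows a share of up to 14.3%.

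The makeup of the dividing cells differed more between the ages than their number. Glia-like cells were 27.5% (24.6 to 30.5) of the G2/M-positive cells at P1 and 60.9% (57.7 to 64.1) at P7, whereas mesenchyme-like cells were 60.5% (57.2 to 63.7) and 32.4% (29.4 to 35.6). Among all kept cells glia-like cells went from 14.7% to 30.8% and mesenchyme-like cells from 71.5% to 58.7%. These class shares also depend on dissection and dissociation, whose part was not tested, and on the clustering. With 30 principal components mesenchyme-like cells went the other way, from 6700 of 12779 kept cells at P1 to 7476 of 12581 at P7. Glia-like cells were then 2097 and 2557, and 2563 and 1606 cells went unnamed. At a resolution of 0.4 mesenchyme-like cells went from 9202 to 4832 and glia-like cells from 1879 to 3433. With the class shares of P1, the P7 library would hold 5.82% G2/M-positive and 3.96% S-positive cells, in place of 7.59% and 4.94%. At a resolution of 0.4 or with 30 principal components this G2/M value was close to the 7.59% found, as given in the closing section. Of the S-positive cells, 22.3% were glia-like at P1 and 55.5% at P7.

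**Figure D2:**
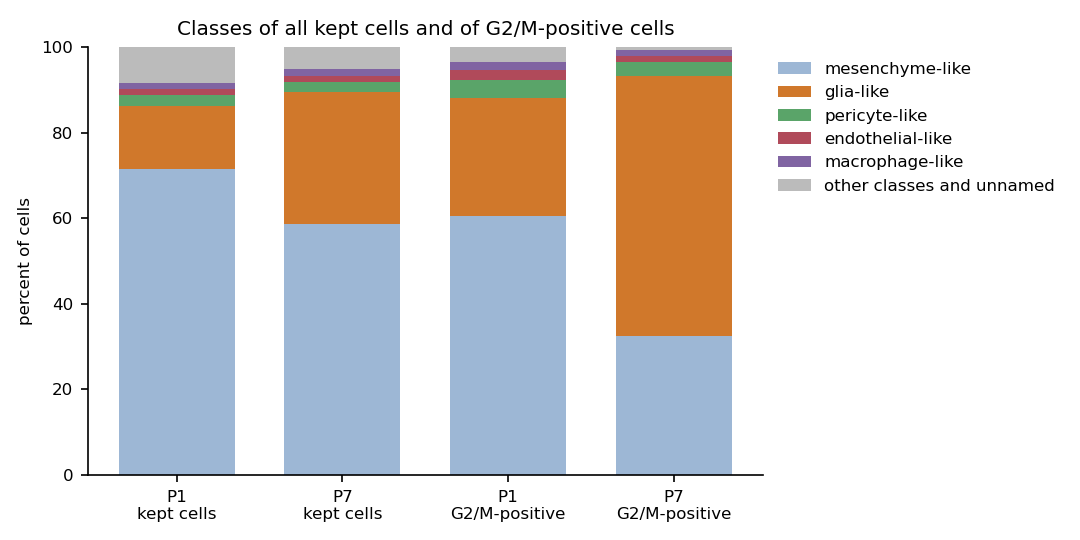
Stacked bars of the cell classes, in percent, among all kept cells and among G2/M-positive cells of each age, 1 library each; grey holds the remaining classes and unnamed clusters. Glia-like cells go from 27.5% of the positive cells at P1 to 60.9% at P7, against 14.7% and 30.8% of all kept cells.

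Dividing cells were also placed with the non-dividing profile of their library most like them, over 11859 genes without the cell cycle genes, a step added after the data had been seen. Of cells with no G2/M gene, 91.8% at P1 and 88.5% at P7 went to their own cluster. The profiles were built from these same cells, but for those with several S genes. These values therefore do not show how well dividing cells were placed. Of the positive cells in the dividing mesenchyme-like cluster, 511 of 538 at P1 and 251 of 278 at P7 went to mesenchyme-like clusters, and 213 of 246 and 423 of 512 in the glia-like one went to glia-like clusters. Within the mesenchyme, cells led by the interstitial markers were G2/M-positive in 8.11% (7.19998 to 9.10) at P1 and 5.38% (4.66 to 6.17) at P7, those led by fibrocyte markers in 5.06% (4.34 to 5.87) and 2.11% (1.58 to 2.76), and those led by Aldh1a2 and Ccn3 in 3.88% (3.14 to 4.73) and 2.32% (1.505 to 3.401). At P7 glia-like cells led by Pou3f1 and Sostdc1 were positive in 13.6% (12.4 to 14.9), and an unnamed cluster with both neuronal and glial markers, led by Fabp7, Nefh and Pnlip, was given 84 positive of 225 cells (37.3%, 31.0 to 44.0) at P7 and 14 of 141 (9.93%, 5.54 to 16.1) at P1. By this placement the P7 share of glia-like cells among the positive was 51.6%.

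The levels of the G2/M genes over all kept cells went in both directions between the ages. Of the 24 genes, 6 were at least 2-fold higher at P7 and 0 at least 2-fold lower. The background was 10.7% of 13729 genes with at least 100 UMIs higher and 11.4% lower. At 1.5-fold 9 genes were higher and 2 lower, beside 22.9% and 21.6% of all genes. Their median log2 ratio was 0.27, against 0.06 over all genes, and 16 genes were above 0 and 8 below. Summed over the list the level was 831 CPM at P1 and 1093 at P7, a log2 ratio of 0.39 (0.38 to 0.41). Fewer cells with a gene and less RNA of it per cell cannot be told apart in such sums.

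Cdk1, the kinase at the centre of mitotic entry, had 3019 UMIs (30.8 CPM) at P1 and 10030 (108 CPM) at P7, a log2 ratio of 1.81 (1.75 to 1.87). In G2/M-positive cells it stood at 260 and 875 CPM. Its partner Ccna2 was at 9.61 and 19.97 CPM, with a log2 ratio of 1.06 (0.94 to 1.17), and Ccnb1 at 23.0 and 29.5 CPM, with 0.36 (0.28 to 0.44). Cks2, a small subunit that binds Cdk1, was at 35.7 and 62.7 CPM (0.81). These 4 genes were all higher at P7, by unequal amounts.

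The ubiquitin genes that end mitosis were higher as well. Ube2c, the ubiquitin-conjugating enzyme of the anaphase-promoting complex, stood at 53.2 CPM at P1 and 150 CPM at P7, a log2 ratio of 1.499 (1.45 to 1.54). Cdc20, which activates that complex, stood at 30.9 and 85.6 CPM, a log2 ratio of 1.47 (1.41 to 1.53). Of the mitotic kinases, Plk1 had a log2 ratio of 1.10 (0.99 to 1.21) and Aurkb of 1.08 (0.98 to 1.18). The intervals of Plk1, Aurkb and Ccna2 reach below 1, so their place past 2-fold is not settled by counting. Aurka stood lower, at 0.32 (0.21 to 0.43), and Bub1, a kinase of the spindle checkpoint, at 0.04 (-0.06 to 0.14).

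Top2a and Mki67 were lower at P7. Top2a stood at 105 CPM at P1 and 67.8 CPM at P7, a log2 ratio of -0.63 (-0.67 to -0.58). Mki67, the proliferation antigen that coats mitotic chromosomes, stood at 82.2 and 56.3 CPM, a log2 ratio of -0.55 (-0.60 to -0.50). Cenpf was at 93.4 and 68.0 CPM (-0.46) and the kinetochore motor Cenpe at 29.7 and 23.7 CPM (-0.32), whereas Cenpw, a small protein of the inner kinetochore, was at 35.0 and 56.2 CPM (0.68). Bub1b, another checkpoint kinase, was at 3.72 and 2.44 CPM (-0.61, interval -0.86 to -0.37).

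The spindle genes divided. Prc1, which bundles the central spindle, had a log2 ratio of 0.65, Birc5 (survivin) of 0.44, Tpx2, which activates Aurora A, of 0.23 and Nusap1 of 0.11. Hmmr had a log2 ratio of -0.56, the motor Kif23 of -0.37 and the motor Kif11 of -0.05, whose interval includes 0. Cdca3 stood at 0.05, likewise with 0 in its interval.

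**Figure D3:**
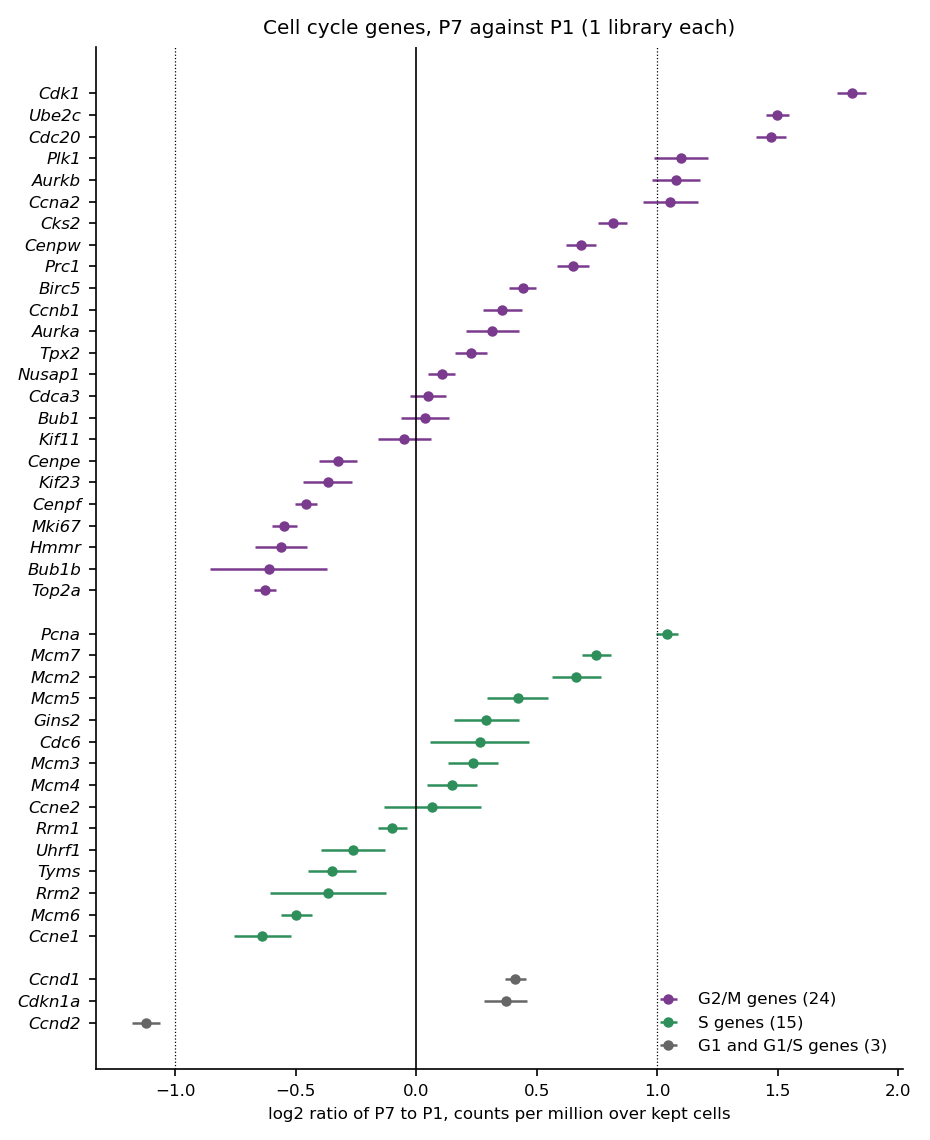
Log2 ratio of P7 to P1 of the level of each of the 42 genes over kept cells, with 95% intervals from counting error; dotted lines mark 2-fold and colours the G2/M, S and G1 lists. Cdk1 lies farthest right (1.81) and Ccnd2 farthest left (-1.12), and the G2/M genes run from Cdk1 to Top2a (-0.63).

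Of the 15 S genes 1 was at least 2-fold higher at P7 and 0 at least 2-fold lower, beside 10.7% and 11.4% of all genes. The median log2 ratio of the S genes was 0.15, against 0.06 over all genes. The sum was 314 CPM at P1 and 390 at P7 (log2 ratio 0.31, 0.29 to 0.34). Pcna, the sliding clamp of the polymerases, stood at 58.7 CPM (5755 UMIs) at P1 and 121 CPM (11240 UMIs) at P7, a log2 ratio of 1.04 (0.99 to 1.09). It was the 1 gene past 2-fold, and it stood below 2-fold over all deposited barcodes (0.98), under 10% mitochondrial UMIs (0.93) and without mitochondrial, ribosomal and haemoglobin genes in the total (0.96). Pcna was not limited to dividing cells: in cells with neither call it stood at 42.9 and 83.9 CPM.

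The 6 subunits of the replicative helicase, which act as 1 ring, did not move together. Mcm7 had a log2 ratio of 0.75 (0.69 to 0.81), Mcm2 of 0.66 (0.56 to 0.77), Mcm5 of 0.42, Mcm3 of 0.24 and Mcm4 of 0.15. Mcm6 was lower at P7, at 48.7 and 34.5 CPM, with a log2 ratio of -0.50 (-0.56 to -0.43). In S-only cells Mcm6 stood at 279 CPM at P1 and 232 at P7, and Mcm7 at 140 and 226, so the directions were opposite also within cells called S-positive. The loading factor Cdc6 and the helicase cofactor Gins2 were at 0.26 and 0.29.

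The genes for deoxynucleotides were lower at P7. Tyms, thymidylate synthase, had a log2 ratio of -0.35 (-0.45 to -0.25), and Rrm2 and Rrm1, the subunits of ribonucleotide reductase, of -0.37 (-0.61 to -0.12) and -0.10 (-0.16 to -0.04). Ccne1, the cyclin of S-phase entry, stood at 15.4 and 9.92 CPM (-0.64, -0.76 to -0.52), whereas its relative Ccne2 was at 4.13 and 4.33 CPM (0.07, -0.14 to 0.27). Uhrf1, which carries DNA methylation through replication, was at -0.26.

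Of the G1 genes, Ccnd1 and Cdkn1a had different directions in different classes, which was not tested. Ccnd2 stood at 79.5 CPM at P1 and 36.6 at P7, a log2 ratio of -1.12 (-1.18 to -1.06) and the 1 gene of the 42 at least 2-fold lower. It was lower at P7 in mesenchyme-like cells (94.9 and 40.2 CPM), glia-like cells (42.2 and 23.1) and pericyte-like cells (138 and 89.8). Ccnd1 stood at 78.3 and 104 CPM, a log2 ratio of 0.41 (0.37 to 0.45), which was 0.07 (0.02 to 0.12) under 10% mitochondrial UMIs. Within classes the direction differed: in glia-like cells Ccnd1 was at 215 and 246 CPM (0.19, 0.12 to 0.26), in mesenchyme-like cells at 57.3 and 34.8 CPM (-0.72, -0.80 to -0.64), and in epithelial-like cells at 90.2 and 54.7 CPM (-0.72, -1.08 to -0.37).

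Cdkn1a was at 19.04 CPM at P1 and 24.6 CPM at P7 over all cells (0.37, 0.28 to 0.46), with a log2 ratio of 0.22 over all deposited barcodes and of 0.61 under 10% mitochondrial UMIs. Its level was high in endothelial-like cells, at 121 CPM at P1 and 48.7 at P7 (-1.32, -1.70 to -0.94), and in macrophage-like cells, at 99.7 and 59.2 CPM (-0.75, -1.16 to -0.36). In mesenchyme-like cells it was at 16.4 and 29.5 CPM (0.84, 0.73 to 0.95) and in glia-like cells at 4.10 and 12.9 CPM (1.66, 1.204 to 2.15). The log2 ratio over all cells stood between these opposite directions, and the difference between classes was not tested.

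**Figure D4:**
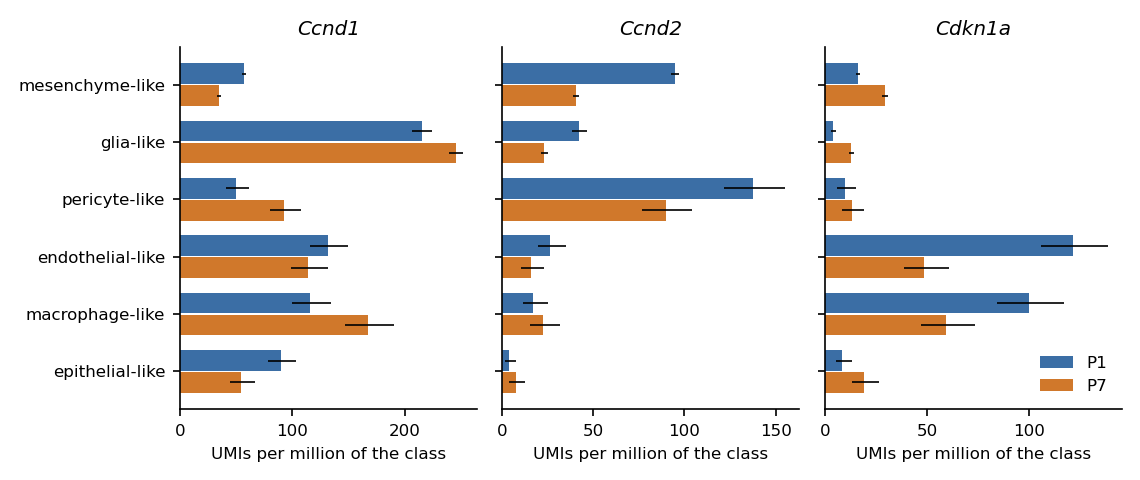
Level of Ccnd1, Ccnd2 and Cdkn1a in 6 cell classes at P1 and P7, in CPM of the class, with exact 95% Poisson intervals and 1 library per age. Ccnd1 is highest in glia-like cells (215 and 246), Ccnd2 is lower at P7 in mesenchyme-like cells (94.9 and 40.2), and Cdkn1a is highest in endothelial-like cells at P1 (121).

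Single genes were then followed within the mesenchyme-like and glia-like classes. Among glia-like cells 5 of 24 G2/M genes were at least 2-fold higher at P7 and 0 lower, beside 14.0% and 8.22% of 10094 genes. Among mesenchyme-like cells 1 was higher (Cdk1) and 3 lower, beside 12.1% and 8.28% of 12533 genes. Cdk1 stood at 59.5 and 204 CPM in glia-like cells (1.78, 1.66 to 1.90) and at 29.8 and 70.3 CPM in mesenchyme-like cells (1.24, 1.16 to 1.31). Top2a stood at 221 and 133 CPM in glia-like cells (-0.73, -0.80 to -0.65) and at 102 and 43.1 CPM in mesenchyme-like cells (-1.24, -1.31 to -1.18). Cdk1 and Top2a had opposite directions within both classes. Ube2c had log2 ratios of 1.503 in glia-like and 0.69 in mesenchyme-like cells, Cdc20 of 1.42 and 0.80, and Mki67 of -0.65 and -1.05. The summed G2/M level was 1689 and 2122 CPM in glia-like cells (0.33, 0.31 to 0.35) and 795 and 688 CPM in mesenchyme-like cells (-0.21, -0.23 to -0.19). Pcna was higher at P7 in each of the 6 classes measured at both ages, with log2 ratios from 0.57 in mesenchyme-like to 1.28 in epithelial-like cells. Mcm6 was at or below 0 in each of them, from -0.13 in pericyte-like, where the interval includes 0, to -1.39 in endothelial-like cells. In endothelial-like cells Cdk1 stood at 48.7 and 51.7 CPM (0.09, -0.36 to 0.53). The classes share their library, so they are not independent measurements of an age.

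**Figure D5:**
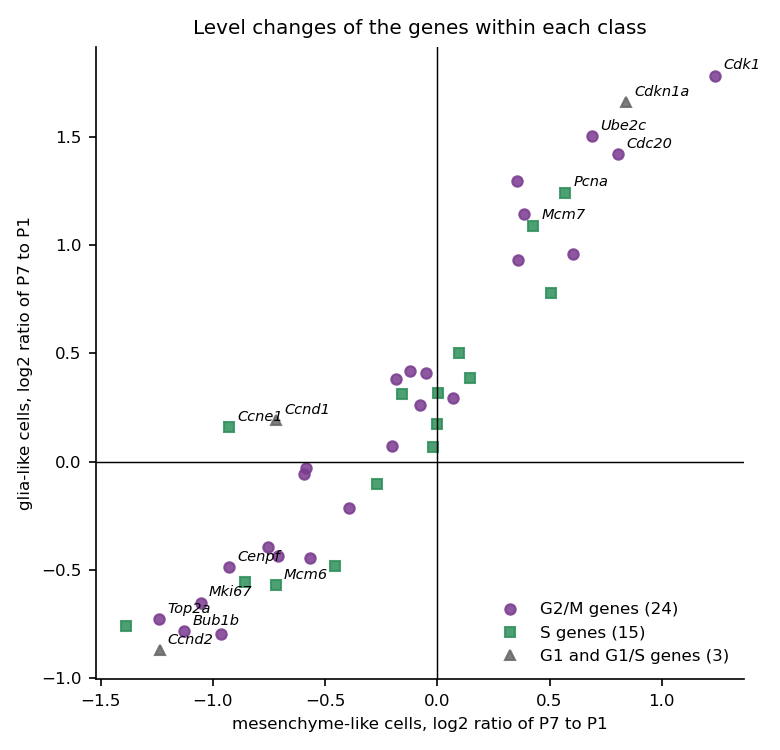
Log2 ratio of P7 to P1 of each gene in mesenchyme-like cells (horizontal) against glia-like cells (vertical), 1 point per gene. Cdk1 lies at the upper right (1.24 and 1.78) and Top2a at the lower left (-1.24 and -0.73), while Ccnd1 lies below 0 in mesenchyme-like (-0.72) and above it in glia-like cells (0.19).

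Of the other genes of the cycle, those of G2/M had a median above that of all genes. Of 34 other G2/M genes 5 were at least 2-fold higher at P7 and 0 lower, beside 10.7% and 11.4% of all genes, with a median log2 ratio of 0.37. The highest were Gtse1 (1.65), Pbk (1.54) and the motor Kif2c (1.52), and the lowest were the condensin subunit Smc2 (-0.59), the kinetochore gene Ndc80 (-0.59) and Hjurp (-0.54), which loads the centromeric histone. Of 29 other S genes 1 was higher and 2 lower, with a median of -0.05. Dtl, which marks replication factors for destruction, stood at 8.53 CPM at P1 and 1.72 at P7 (-2.31), followed by Clspn (-1.72) and Tipin (-0.95), both of the replication checkpoint. Slbp, which binds histone mRNA, had a log2 ratio of 0.93 and Dut, the dUTPase, of 0.71. Of 22 other G1 genes 3 were higher and 4 lower, 13.6% and 18.2%, which is near the share of all genes. The kinase inhibitor Cdkn2b had a log2 ratio of 2.09 (1.60 to 2.61) at a low level, with 43 UMIs (0.44 CPM) at P1 and 174 (1.87 CPM) at P7. Cdk2 had a log2 ratio of 1.61 and Cdkn2c of 1.41. Ccng1, a target of p53, stood at -1.24, Btg2 at -1.20 and the repressor E2f7 at -1.06.

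Cdkn1b and Cdkn1c, which code for p27 and p57 and hold cells out of the cycle, differed by class. Cdkn1b, which marks supporting cells that have left the cycle, was at 234 CPM in epithelial-like cells at P1 and 185 CPM at P7, and at 125 and 78.2 CPM in mesenchyme-like cells. Cdkn1c was at 479 and 665 CPM in mesenchyme-like cells and at 127 and 271 CPM in glia-like cells. Cdkn1b was not limited to cells without a G2/M call. Its log2 ratio of G2/M-positive to other cells was 0.55 at P1 and 0.49 at P7, and that of Cdkn1c was -0.15 and -0.34.

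Genes outside all these lists with the same pattern over cells were ranked by the lower of the 2 libraries' log2 ratios between G2/M-positive and other cells, over 4806 genes of at least 20 CPM in each library. The first 10 were AABR07000658, with 4.80 at P1 and 5.17 at P7, then Cdkn3 (4.52 and 5.31), Sgo2 (4.42 and 4.52), Hist1h2an (4.34 and 4.53), Spc24 (4.06 and 4.83), Cenpm (3.37 and 3.57), Tubb4b (3.33 and 3.35), H2afx (3.16 and 3.63), Fbxo5 (3.52 and 3.15) and Cenph (3.07 and 3.21). Sgo2 guards the cohesion of centromeres, Spc24, Cenpm and Cenph belong to the kinetochore, and Fbxo5 inhibits the anaphase-promoting complex. Hist1h2an belongs to a histone family with near-identical copies, so its reads may be split with them.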

How the data were processed

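UMI counts per gene and barcode were deposited without normalization, made with Cell Ranger 3.1.0 on the rat build rn6 per the labels. The authors also named Seurat 3.1.1 and bcl2fastq in their processing notes. Neither doublet removal nor a correction for free RNA is given in the sources used here. The genes, lists and calls were chosen with earlier results of these data known.

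The study's limits were applied, which keep barcodes with over 500 and under 5000 genes, 500 or more UMIs and a mitochondrial share under 25%. Total UMIs were 114285848 at P1 and 101264868 at P7, so counting intervals are narrow for abundant genes and wide for small classes. Libraries were merged and clustered with Seurat 5.3.0 in R 4.3.3 (10000 counts per cell, 2000 variable genes of which 67 cell cycle genes were left out, 10 principal components, 20 neighbours, resolution 0.8). A cluster was named by the marker list with the highest mean log2 ratio to the other cells (pseudocount 5 CPM), if this was at least 0.5 and at least 0.35 above the next class, with at least 3 markers in at least 10% of cells. The thresholds of this rule were set with the clusters in view. Scrublet in scanpy 1.11.5 called 622 doublets at P1 and 775 at P7, which were kept. Shares and levels were computed with numpy 2.4.6, pandas 2.3.3 and scipy 1.17.1 under Python 3.11.15.

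Levels are counts relative to all UMIs of the library or class (CPM), without scaling to length, so levels were not compared between genes. Log2 ratios of P7 to P1 have no pseudocount, and their 95% intervals are exact and conditional on the counts. Ratios of positive to other cells are means over mesenchyme-like, glia-like and pericyte-like cells with a pseudocount of 5 CPM. Shares have Clopper-Pearson intervals, and a count of 0 has a limit of 3 counts. The scripts were tested on simulated data. With 1 library per age nothing was tested and no p-value is given. All 42 genes found are named. Of each further list the 3 highest and 3 lowest log2 ratios among genes with at least 100 UMIs are named, and the 10 genes outside all lists most raised in G2/M-positive cells by the lower library. Some results that meet this rule are not reported here. Cdkn1b, Cdkn1c and Pttg1 are named outside that rule, after their values were seen. Promoters come from RefSeq (GRCr8), another build than the counts, and were joined by symbol. Alternatives were other depths and numbers of genes for the calls, other resolutions, 30 principal components, integrated libraries, clustering with the cell cycle genes kept, removal of called doublets, changed cell limits and totals, and changed minimums and folds.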

Additional observations from a re-analysis of the deposited data

Results flagged for a closer look

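The G2/M-positive share was lower at P7 than at P1 in mesenchyme-like cells (log2 ratio -0.58) and higher in glia-like cells (0.12, with an interval that includes 0, and 0.28 to 0.86 with intervals above 0 under the 5 other clusterings). The difference between the 2 classes was not tested, since each age is 1 library.

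Ccnd1 also had opposite directions in these classes, with log2 ratios of 0.19 in glia-like and -0.72 in mesenchyme-like cells, and the difference was not tested. Cdkn1a had log2 ratios of 1.66 in glia-like and 0.84 in mesenchyme-like cells, but of -1.32 in endothelial-like and -0.75 in macrophage-like cells. This difference was not tested either.

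Barcodes left out for having 5000 or more genes were often G2/M-positive. Of 383 such barcodes at P1, 23.5% (19.3 to 28.1) were G2/M-positive after thinning, and of 83 at P7, 37.3% (27.0 to 48.7). Their median depth was 32775 and 30289 UMIs, and the part of doublets among them was not tested.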

How the results depend on the processing

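No paired analysis was possible because each age has 1 library. With 1 library per age no spread between animals is known, and the depth limits most the smallest classes. A call on at least 2 genes put the glia-like part of the G2/M-positive cells of P7 at 57.5% and the P7 share at the class shares of P1 at 7.44%. With at least 5 genes that share was 4.87%, and the log2 ratio of the S share was 0.76, or 0.27 among mesenchyme-like cells. Without thinning, the log2 ratio of the S share was 0.17, the glia-like part 22.5% at P1 and 51.2% at P7, and the P7 share at the class shares of P1 9.84%. Thinned to 4000 UMIs, the log2 ratio of the S share was 0.22. At a resolution of 0.4 the mesenchymal G2/M log2 ratio turned to 0.0145, with 4832 mesenchyme-like cells at P7 in place of 7382, the S ratio was 0.31, and the share at P1 class shares 7.53%. At a resolution of 1.2 the mesenchymal G2/M ratio was -0.90. With 30 principal components it was -1.03, the glial one 0.86, and the share at P1 class shares 7.73%, or 8.15% with every cluster named by its leading list and the glial ratio again 0.86. The summed G2/M log2 ratio was 0.32 over all deposited barcodes, 0.43 under 10% mitochondrial UMIs, 0.31 without mitochondrial, ribosomal and haemoglobin genes in the total and 0.30 as a mean over cells, and the S sum was 0.28, 0.24, 0.23 and 0.36. At 1.5-fold, beside 22.9% of all genes higher and 21.6% lower, 9 G2/M genes were higher and 2 lower, 3 S genes higher and 1 lower, 12 other G2/M genes higher and 2 lower, and 4 other S genes higher and 8 lower. With at least 1000 UMIs, 3 other G2/M genes were higher and 0 other S genes lower. The settings that follow, and naming by the leading list, were added after the data had been seen. Without the 6 G2/M genes past 2-fold the share at P1 class shares was 5.27%, without Pcna and Mcm7 the log2 ratio of the S share was 0.33, and with dividing cells placed by profile the glia-like part was 23.9% at P1 and 51.6% at P7 and the share at P1 class shares 6.40%. Of 210 log2 ratios of single members under 5 settings, 8 had another sign than the reported value, and the largest move was 0.34 (Ccnd1 under 10% mitochondrial UMIs). Apart from the changes in clusters and lists, which are named, the causes were not tested.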
